A study of Mus musculus with 4 samples.

Results

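The axon guidance ligands and receptors examined here were the 66 autosomal protein-coding genes, of 20807 in GENCODE vM21 (mouse build GRCm38, also called mm10), that encode semaphorins, plexins, neuropilins, ephrins, Eph receptors, Slits, Robo receptors, netrins, Dcc and the Unc5 receptors. The members were found by gene symbol, and this group of families was chosen with earlier results of these data known. CpG methylation was measured by whole-genome bisulfite sequencing (WGBS) in 4 brains of male embryos of the strain 129S6.cg Tet1<tm1Koh> at E11.5. The 4 libraries were 1 Tet1 knockout (KO) and 1 wild type (WT) embryo from dams fed 30 ppm folic acid (FA), an excess, and 1 KO and 1 WT embryo from dams fed 3 ppm FA, the control diet. In the KO allele an insertion at the first coding ATG of Tet1 removes the full-length transcripts. The allele was kept in C57BL/6 and then backcrossed to 129S6. Both parents were heterozygous, dams were adapted to their diet for 4 weeks, and both diets carried the antibiotic succinylsulfathiazole, which suppresses folate synthesis by gut bacteria. Each library came from 1 embryo, and the titles give 4 different litters, so KO and WT of a diet were not littermates. A sample list of the study, made for another assay, holds the embryo numbers that stand in these titles. There the WT embryos are entered as normal and the KO embryos with a neural tube defect, so that genotype and phenotype cannot be told apart. With 1 embryo per group there is no replicate, and a test on reads compares 2 libraries, not 2 conditions.

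TET1 oxidises 5-methylcytosine, a step towards its removal. Axon guidance molecules steer growing axons and migrating cells by attraction and repulsion. Semaphorins signal through plexins, with neuropilins as co-receptors of the secreted class 3. Ephrins are bound to the cell surface and signal in both directions with Eph receptor kinases. Slits repel axons at the midline through Robo receptors, and netrins attract axons through Dcc or repel them through the Unc5 receptors. At E11.5 the mouse brain is made largely of neural progenitors, with the first neurons sending out axons.

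Levels are the share of methylated reads over usable CpGs, those covered by 5 or more reads in every library, and reads over several CpGs count once at each. Mean autosomal coverage lay between 13.2 and 21.2 reads and was highest in KO at 3 ppm. The mean level of the 14907672 CpGs used was 83.5% in KO against 81.4% in WT under 30 ppm, and 82.8% against 82.1% under 3 ppm. Start-site windows of the neural progenitor genes Sox1, Sox2, Nes and Pax6 lay between 0 and 2.83% in all 4 libraries, while Fabp7 lay between 13.0 and 27.9%. Those of the blood and endothelial genes Ptprc, Spi1, Hba-x, Cdh5, Pecam1 and Tie1 lay between 78.7 and 93.7%. Those of the early neuronal genes Tubb3 and Stmn2 ranged from 20.2 to 54.5%, and those of the germline genes Dazl, Ddx4 and Dpep3 from 83.4 to 94.6%. These are levels of a mixed tissue and not expression.

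Each gene was described by 3 windows: the start site ± 1 kb, flanks from 1 to 3 kb on both sides, and the gene body from 3 kb after the start site to the gene end. A window of at least 3 such CpGs was called hypermethylated or hypomethylated at a Benjamini-Hochberg adjusted p under 0.05 (Fisher's exact test, two-sided, adjusted over that window of all genes) and a difference that reached 10 percentage points (points). The axon guidance genes were long and rich in CpGs: their median length was 62.8 kb against 17.6 kb for all genes, and their start-site windows held a median of 99.5 CpGs against 64. WGBS covered these CpG-dense stretches thinly. A median of 18% of the CpGs of a member's start-site window was usable, against 41.6% over all genes, and 60.8% against 80.4% in the flanks. The start sites of Plxnd1 (2 usable CpGs of 166) and Ephb2 (0 of 183) could not be tested.

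At the start site the share of members called lay near that of all genes. At 30 ppm, 9 of 64 tested members (14.1%) were hypermethylated in KO, against a background of 15.4% of all genes, and at 3 ppm 10 of 64 (15.6%), against 16.6%. The 5 members hypermethylated in both diets, 7.81% against 8.01% of all genes, were Epha8, Sema4a, Sema4g, Dcc and Ephb3. The start sites were less methylated than most, at a median of 13.9% in WT against 37.4% over all genes. Among those below 80% in WT, 9 of 62 members were called at 30 ppm, where 19.5% of such genes were, and 10 of 62 (16.1%) at 3 ppm, where 21.1% were. Median differences were 4.17 points against 3.93 over all genes at 30 ppm and 5.60 against 3.31 at 3 ppm. Start sites of 17 members stayed below 10% in all 4 libraries, among them Sema6a, Epha4, Efnb2 and Efna5.

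In the flanks the share was larger. At 30 ppm, 20 of 66 members (30.3%) were hypermethylated in KO, where 9.5% of all genes were, and at 3 ppm 16 of 66 (24.2%), where 7.05% were. The 8 members hypermethylated in both diets, 12.1% against 3.5%, were Sema6b, Sema6d, Plxnb2, Efnb3, Epha6, Robo2, Unc5a and Unc5c. No member start-site, flank or body window was hypomethylated in KO in either diet. Of all genes 0.331% of start sites, 0.103% of flanks and 0.0666% of bodies were at 30 ppm, and 0.381%, 0.128% and 0.0999% at 3 ppm. Median flank differences were 5.52 points at 30 ppm and 5.83 at 3 ppm, against 3.01 and 1.69 over all genes. Flanks of the members were also less methylated to begin with, at a median of 57.3% in WT against 80.4% over all genes. Among flanks below 80% in WT, 31.7% of 60 members were hypermethylated at 30 ppm against 18.9% of all such genes, and 26.7% against 14.3% at 3 ppm. With a minimum of 10 reads per CpG, 12 of 63 member flanks (19%, background 7.42%) and 9 of 63 (14.3%, background 5.08%) were called, and with levels averaged over CpGs 12 of 66 at each diet (18.2%, background 7.65% at 30 ppm and 5.75% at 3 ppm).

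**Figure D1:**
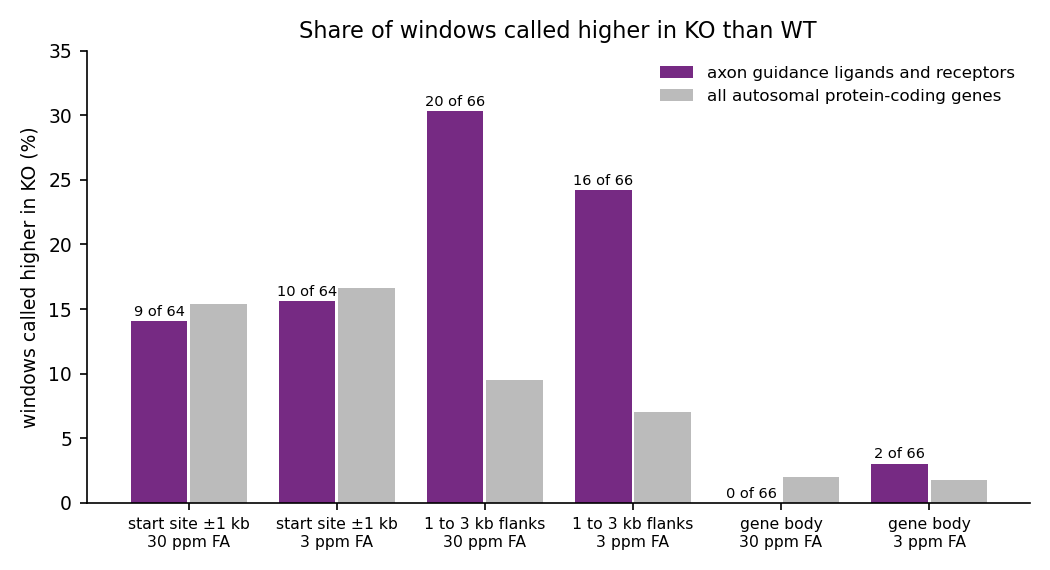
Percent of windows called hypermethylated in KO (bars, from 0) for the 66 axon guidance genes (purple, with the count called of those tested) and for all autosomal protein-coding genes (grey), by window and diet. The bars are level at the start site, and the purple bars stand above the grey ones in the flanks of both diets, at 30.3% against 9.5% and 24.2% against 7.05%.

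The larger share was seen on both sides of the start site. Of the 20 flanks called at 30 ppm, 6 had a summed difference above that of either side taken alone and 2 one below both, and of the 15 called at 3 ppm with both sides tested, 0 and 4. The summed difference of such a flank is not that of either side, and what part the libraries' read shares on the 2 sides have in it was not tested. Downstream, 22 of 66 members were hypermethylated at each diet (33.3%, background 12.4% at 30 ppm and 10.5% at 3 ppm), and upstream 11 of 65 (16.9%, background 5.21% and 4.56%). In both diets the downstream flank was called in 11 members (16.7%, background 5.41%), Sema6b, Plxnb2, Plxna4, Efna1, Efnb3, Epha5, Ephb1, Ephb3, Robo2, Unc5a and Unc5c. The upstream one was in 4 (6.15%, background 1.73%), Sema5b, Ephb2, Unc5b and Unc5c. The larger share of summed flanks was present in genes with a CpG-poor start site (observed over expected CpG below 0.6), where 34.4% and 18.8% of members stood against 6.67% and 5.46% of genes, and in those with a CpG-rich one, with 26.5% and 29.4% against 14.6% and 9.92%. In 500-bp bins, the mean level of the members was lowest around the start site, and KO lay above WT there and on both shoulders. At 0.25 kb downstream the level lay between 14.2 and 20.9%, over the 28 members that this bin holds. Bins thus average different sets of members. At 2.25 kb downstream, over 54 members, KO lay 10.5 points above WT at 30 ppm and 6.85 at 3 ppm. The mean over all genes differed there by 3.61 and 2.13.

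**Figure D2:**
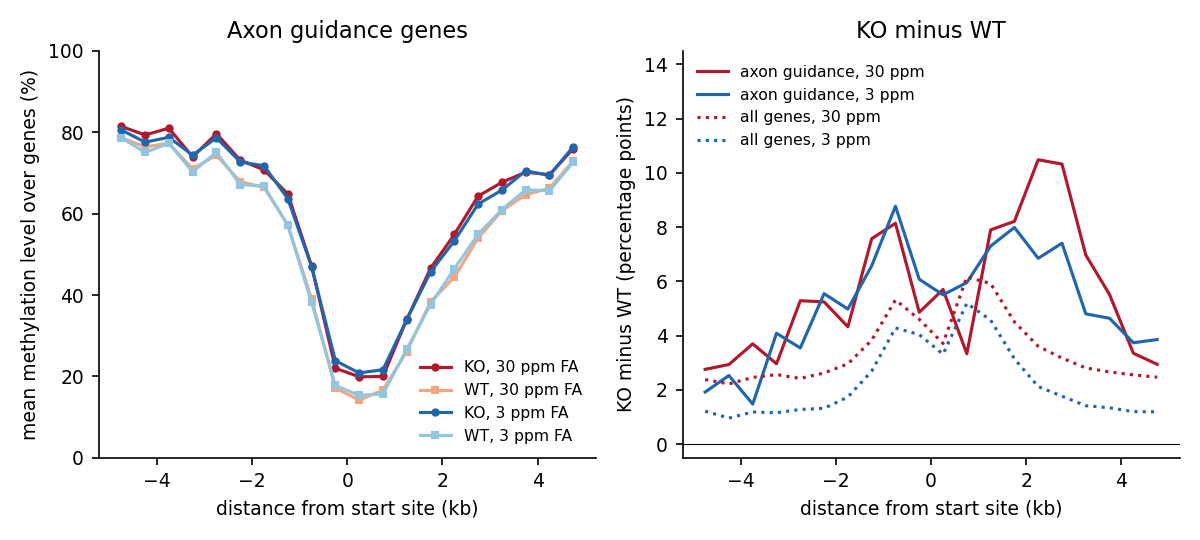
Left, mean CpG methylation level (%) of the axon guidance genes in 500-bp bins against the distance from the start site (kb), 1 line per library. Right, KO minus WT (percentage points) at 30 ppm (red) and 3 ppm (blue) for the axon guidance genes (solid) and all genes (dotted). From 1 to 3 kb downstream the solid lines lie above the dotted ones, by 10.5 against 3.61 points at 2.25 kb and 30 ppm. A bin holds between 28 and 64 axon guidance genes.

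In at least 1 diet 28 of 66 member flanks were hypermethylated (42.4%, background 13.1%), and 14 of 64 start sites (21.9%, background 24%). The count of flanks differed by family. Of the receptors, 6 of 7 plexins, 8 of 14 Eph receptors and 4 of 5 netrin receptors were hypermethylated in at least 1 diet, but 1 of 4 Robo receptors and 1 of 2 neuropilins. Of the ligands, 3 of 13 membrane-bound semaphorins of classes 4 to 7, 2 of 7 ephrins, 2 of 4 netrins, 1 of 3 Slits and 0 of 7 secreted class 3 semaphorins were. The class 3 semaphorins had no start site called either. With the sides of the start site apart, the upstream flank of Sema3g was called at 30 ppm, with 61.6% in KO and 39.2% in WT (22.4 points, adjusted p = 0.0418). The gene Nisch overlaps the start-site window of Sema3g. For the class as a whole, median flank differences were 0.36 points at 30 ppm and 1.11 at 3 ppm. The windows of Robo1 and Sema3a were placed at the start of the gene record. That lies 354843 and 271370 bp from the start of the tagged transcripts, the most upstream ones tagged as basic or principal in GENCODE. Over both sides and all libraries the flank levels lay between 84.5 and 92.6% in Robo1 and between 74.7 and 95.4% in Sema3a. No test of the difference between families was made.

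Among membrane-bound semaphorins the clearest start-site difference was in Sema4a (chr3:88435959-88461182, minus strand), a class 4 transmembrane semaphorin. Its start site was 84.6% methylated in KO against 65.7% in WT under 30 ppm, and 86.5% against 61.2% under 3 ppm, over 21 CpGs. The differences were 18.9 points (95% interval 9.99 to 27.3, adjusted p = 0.000805) and 25.4 points (17.3 to 33.3, adjusted p = 2.47e-08). A window named as called in both diets has KO above WT of the same diet by selection. KO was higher than WT at 17 of the 21 CpGs in each diet and at 14 in both. The CpG 555 bp after the start site (chr3:88460627) had levels of 85.7% in KO against 37.5% in WT under 30 ppm, and 90% against 36.4% under 3 ppm, on 7 to 11 reads a library. CpG differences in this window ran from -15.5 to 72.7 points at 30 ppm and from -11.1 to 59.5 at 3 ppm.

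Sema4g (chr19:44989101-45003397, plus strand), of the same class, was lower throughout. Its start site stood at 40.0% in KO against 15.4% in WT under 30 ppm, and at 37.6% against 22.3% under 3 ppm. The differences were 24.6 points (17.0 to 31.9) and 15.4 points (8.62 to 21.8). Sema4b differed at its start site at 30 ppm, with 32.5% in KO and 13.9% in WT, while its 28.2% and 22.5% at 3 ppm were not called. The flank of Sema4c was 73.0% in KO against 56.6% in WT under 3 ppm, against 69.7% and 64.3% at 30 ppm. The difference of 16.4 points at 3 ppm became 7.94, not called, as a mean over CpGs.

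The class 6 semaphorins are transmembrane ligands of class A plexins. The flanks of Sema6b (chr17:56123085-56140343, minus strand) had a level of 66.5% in KO against 43.9% in WT under 30 ppm, and 61.7% against 46.4% under 3 ppm. Those of Sema6d (chr2:124089969-124667770, plus strand) had 77.9% and 54.6%, then 75.1% and 63.1%. KO exceeded WT by 22.6 and 15.3 points in Sema6b and by 23.3 and 12.04 points in Sema6d, the 2 largest mean flank differences among the members called in both diets. At 3 ppm, thinning to the shallowest library ended the call in Sema6b (13.1 points) and in Sema6d (11.8), and a minimum of 10 reads ended that in Sema6d (9.62). Taken apart, neither side of Sema6d was called at 3 ppm. The start site of Sema6b was also called at 30 ppm, by 15.6 points. Sema5a, which carries thrombospondin repeats, was called at its start site at 3 ppm, with 54.3% in KO and 27.5% in WT, over 8 CpGs. At 30 ppm its 56.5% and 43.2% were not called (13.4 points, -0.937 to 26.9).

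**Figure D3:**
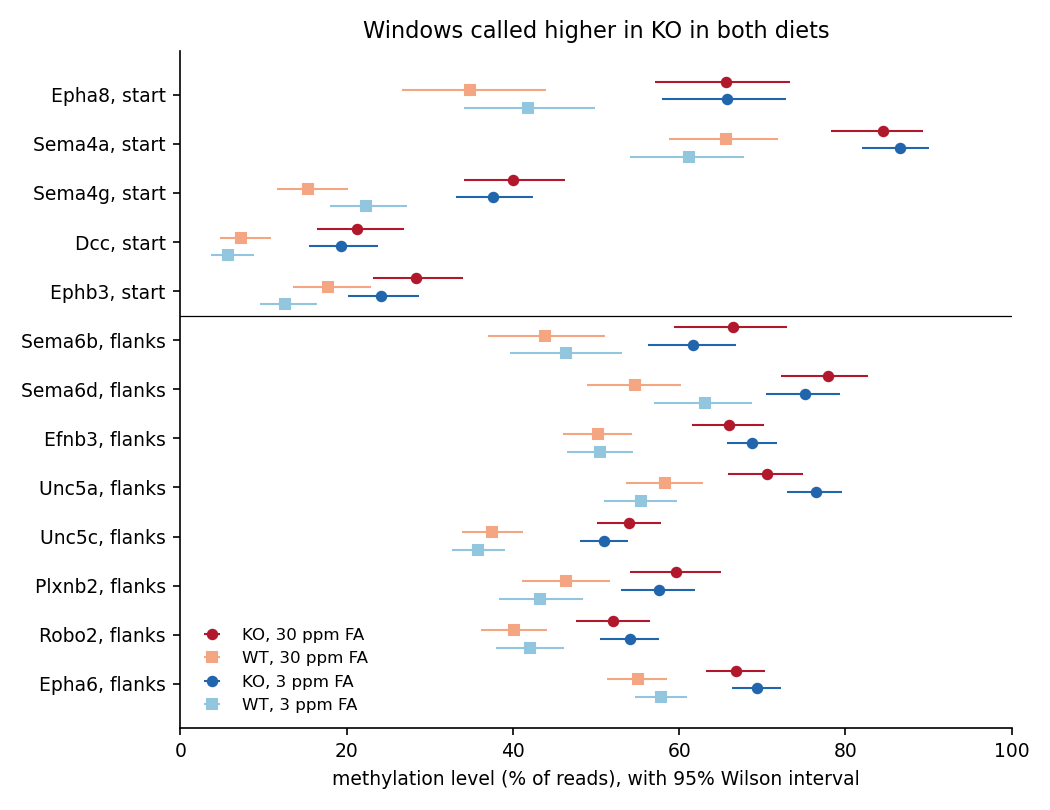
Methylation level (% of reads, with 95% Wilson intervals for counting error) of the windows called hypermethylated in KO in both diets, in the 4 libraries, start sites above the line and flanks below it. The rows were selected by their calls, which place KO (circles) above WT (squares) of the same diet. They run from Dcc at 5.73 to 21.2% to Sema4a at 61.2 to 86.5%.

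Plexins are the signalling receptors of the semaphorins. The flanks of Plxnb2 (chr15:89155549-89180788, minus strand), a receptor of class 4 semaphorins, were 59.7% in KO against 46.3% in WT under 30 ppm, and 57.5% against 43.3% under 3 ppm. Those differences of 13.3 and 14.2 points dropped to 6.96 and 7.63 when levels were averaged over CpGs. Its start site differed by 14.3 points at 3 ppm, or 11.9 and not called after thinning, and by 6.51 points, not called, at 30 ppm. Plxnd1, the receptor of Sema3e, had flank levels of 72.2% in KO against 50.2% in WT under 3 ppm, but 66.7% and 61.8% at 30 ppm. Its call at 3 ppm was lost with a minimum of 10 reads (17.95 points). Plxnb1, the receptor of Sema4d, stood at 54.1% and 34.4% at 3 ppm and at 46.9% and 43.5% at 30 ppm. In both the difference passed the test in the 3 ppm pair and not in the 30 ppm pair, and the difference between the diets did not pass its own test (adjusted p = 0.231 and 0.158, Wald). The gene Dennd6b reaches within 3 kb of the start site of Plxnb2, and Ccdc51 within 3 kb of that of Plxnb1.

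Class A plexins transmit class 3 signals together with neuropilins. The start site of Plxna1 stood at 34.9% in KO against 12.7% in WT under 3 ppm, and at 18.9% against 9.09% under 30 ppm, over 7 CpGs. The difference at 3 ppm was not called after thinning (16.7 points). That of Plxna2 stood at 42.7% and 25.7% at 30 ppm and at 37.1% and 34.0% at 3 ppm. The call in Plxna2 was not stable, since the difference of 17.0 points turned to -2.46 with a minimum of 10 reads and to -0.33 as a mean over CpGs. The window also lies at the start of the gene record, 1607 bp from the start of the tagged transcripts (the most upstream transcript tagged as basic or principal in GENCODE), where the difference was 3.30 points and not called. Further flank calls were made for Plxna2 (14.53 points) and Plxna4 (12.5 points) at 30 ppm and for Plxnc1, the Sema7a receptor (12.8 points), at 3 ppm. None of these held under every setting: as a mean over CpGs Plxna2 had 5.78 points, Plxna4 9.30 and Plxnc1 9.21, and with a minimum of 10 reads Plxna4 had 7.86 and Plxnc1 7.35. On the 2 sides of Plxna2 taken apart the difference at 30 ppm was 5.17 points upstream and 7.68 downstream, neither called. At 3 ppm its downstream side was called, with 13.2% in KO against 2.88% in WT (10.4 points, adjusted p = 0.000121). Upstream the difference at 3 ppm was -4.66 points, not called. The downstream flank of Plxna4 was called in both diets, with 23.6% in KO against 12.3% in WT under 30 ppm, and 23.3% against 10.3% under 3 ppm. Nrp1, a co-receptor of class 3 semaphorins and of VEGF (chr8:128358604-128503363, plus strand), had flank levels of 41.2% in KO against 25.5% in WT under 30 ppm, against 32.3% and 31.3% at 3 ppm. By side, KO was 16.6 points higher upstream and 13.9 downstream at 30 ppm, both called, and 5.53 and 1.01 points at 3 ppm, not called. As a mean over CpGs the 15.6 points of both sides became 9.65, under the minimum difference.

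In the ephrin system the start site of Epha8 (chr4:136929419-136956816, minus strand), a receptor of the GPI-anchored ephrin-A ligands, had the largest mean difference over both diets of all member start sites. It was 65.6% in KO against 34.8% in WT under 30 ppm, and 65.8% against 41.8% under 3 ppm. The differences were 30.8 points (18.2 to 42.0, adjusted p = 6.62e-05) and 24.0 points (12.7 to 34.5, adjusted p = 0.000468). Only 14 of the 124 CpGs of this window could be used, and KO was higher at 13 of them at 30 ppm, 12 at 3 ppm and 11 in both. The CpG 441 bp after the start site (chr4:136956375) had 75.0% in KO against 45.5% in WT under 30 ppm, and 90% against 28.6% under 3 ppm, on 10 to 14 reads a library. CpG differences in this window ran from -4.76 to 66.7 points at 30 ppm and from -6.67 to 61.4 at 3 ppm. Thinned to the shallowest library, the start-site difference of Epha8 at 3 ppm was 17.6 points and not called. The flanks of Epha8 were called at 30 ppm alone (10.6 points), and not with a minimum of 10 or of 2 reads (11.28 and 9.98 points), after thinning (9.73) or as a mean over CpGs (8.34).

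The flanks of Efnb3 (chr11:69554092-69560205, minus strand), a transmembrane ephrin-B ligand of the midline, had 66% in KO against 50.2% in WT under 30 ppm, and 68.8% against 50.5% under 3 ppm. The differences were 15.8 points (9.78 to 21.7, adjusted p = 1.35e-05) and 18.3 points (13.3 to 23.2, adjusted p = 8.89e-11). With a minimum of 10 reads the difference at 30 ppm was 9.95 points, under the minimum difference. The gene Wrap53 reaches within 3 kb of the Efnb3 start site. Epha6 (chr16:59653483-60605531, minus strand), another ephrin-A receptor, had flank levels of 66.9% and 55.0%, then 69.4% and 57.8%. Its differences of 11.9 and 11.53 points fell under the minimum difference as means over CpGs (9.33 and 9.50). Taken apart, neither side of Epha6 was called at 30 ppm (10.4 points upstream and 6.34 downstream). At 3 ppm the upstream side was called (14.4 points) and the downstream one was not (4.13 points). Ephb3, an ephrin-B receptor (chr16:21204755-21223305, plus strand), was called at its start site in both diets, by 10.6 and 11.52 points, and in its flanks at 3 ppm, by 10.9 points. No call at its start site held with a minimum of 2 reads (8.13 and 7.43 points) or as a mean over CpGs (5.35 and 6.53 points), and that in its flanks did not hold with a minimum of 10 reads (7.32 points).

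For other members of the ephrin system no window was called in both diets, with the sides of the flanks summed. The flanks of Ephb1 were 62.6% in KO against 46.2% in WT under 30 ppm, and 59.1% against 52.0% under 3 ppm. Its start site was called at 3 ppm (12.2 points), a difference that turned to -7.96 with a minimum of 10 reads. Taken apart, 1 side was called in both diets in 4 such members, downstream in Ephb1 (16.9 and 12.5 points), Efna1 (17.1 and 23.8) and Epha5 (19.5 and 15.9) and upstream in Ephb2 (12.5 and 13.3). Efna1, an ephrin-A ligand, stood downstream at 33.9% in KO against 16.8% in WT under 30 ppm, and at 44.4% against 20.5% under 3 ppm. The same side of Epha5, an ephrin-A receptor, stood at 37.2% and 17.6%, then at 32.8% and 16.9%. Further flank calls at 30 ppm were in Ephb4 (12.3 points), Epha10 (11.7) and Efna3 (10.9), and at 3 ppm in Ephb2 (15.4) and Epha2 (15). With a minimum of 10 reads Epha2 had 3.83 points and Efna3 6.99, with a minimum of 2 reads Epha10 had 9.44, and after thinning to the shallowest library Ephb4 had 7.25, none of them called.

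In the Slit system, the start site of Slit1 (chr19:41600257-41743665, minus strand), a midline repellent, had the largest mean difference but was not called. Its 12 usable CpGs of 92 gave 57.1% in KO against 38.5% in WT under 30 ppm, and 48.1% against 34.3% under 3 ppm. Those differences of 18.6 points (3.98 to 32.2, adjusted p = 0.0689) and 13.8 points (1.43 to 25.3, adjusted p = 0.115) rest on 84 to 156 reads a library. KO was higher at 8 of the 12 CpGs at 30 ppm, at 7 at 3 ppm and at 5 in both. The CpG 700 bp before the start site (chr19:41744365) had 87.5% in KO against 14.3% in WT under 30 ppm, and 80% against 23.1% under 3 ppm. It had the largest difference of the window in each diet and rests on 7 to 15 reads a library. CpG differences in this window ran from -18.2 to 73.2 points at 30 ppm and from 0 to 56.9 at 3 ppm. The flanks of Slit1 were called at 30 ppm (11.7 points) and the start site of Slit3 at 3 ppm (12.1 points). Neither was called with a minimum of 10 reads, at 7.76 points in Slit1 and 6.03 in Slit3.

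Robo2 (chr16:73891839-74411825, minus strand), a Slit receptor, was the Robo receptor with a window called in both diets. Its flanks had 52.1% in KO against 40.1% in WT under 30 ppm, and 54.1% against 42.0% under 3 ppm. These differences of 11.97 and 12.03 points dropped to 6.26 and 3.36 when the start site of the tagged transcripts was used.

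**Figure D4:**
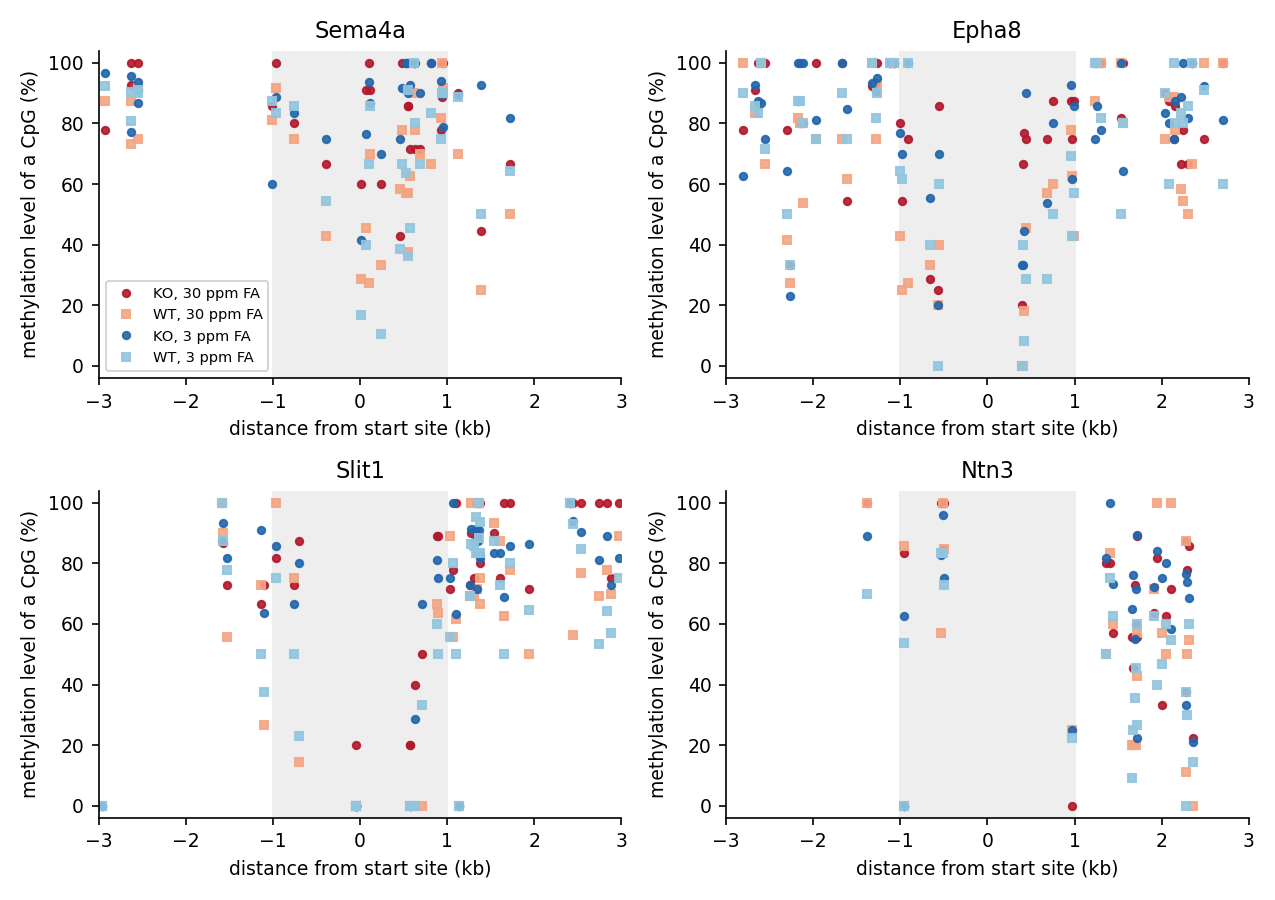
Methylation level (%) of single usable CpGs against the distance from the start site (kb) for the member of each system with the largest mean difference, with the start-site window shaded. In Epha8 the KO points (circles) lie above the WT points (squares) at 13 of 14 shaded CpGs at 30 ppm, and in Ntn3 at 12 of 20 unshaded CpGs at 30 ppm and 19 of 20 at 3 ppm.

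In the netrin system both receptors and ligands were called. The start site of Dcc (chromosome 18, minus strand), the receptor for attraction, had 21.2% in KO against 7.25% in WT under 30 ppm, and 19.3% against 5.73% under 3 ppm. KO was higher by 14.0 points (7.93 to 20.2, adjusted p = 0.000144) and 13.6 points (8.64 to 18.5, adjusted p = 2.60e-06). Its flanks were called at 30 ppm, with 40.9% in KO and 28.6% in WT, and not at 3 ppm, with 32.2% and 36.4%. Those levels join a methylated side upstream with a lowly methylated one downstream, and 32.8 and 29.8% of the reads lay upstream in KO and WT of 30 ppm, but 27.3 and 37.2% in those of 3 ppm. Downstream, KO stood at 18.3% against 4.40% in WT under 30 ppm, and at 12.7% against 6.75% under 3 ppm. KO was thus above WT there in both diets, by 13.9 points (adjusted p = 1.32e-07) and by 5.96 points (adjusted p = 0.0191), the latter under the minimum difference. Upstream all 4 libraries lay between 84.1 and 87.2%.

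Unc5 receptors mediate repulsion by netrin. The flanks of Unc5a (chr13:54949411-55006018, plus strand) had 70.6% in KO against 58.3% in WT under 30 ppm, and 76.4% against 55.4% under 3 ppm. Those of Unc5c (chr3:141465216-141834924, plus strand) had 54.0% and 37.5%, then 50.9% and 35.8%. KO exceeded WT by 12.3 and 21.0 points in Unc5a and by 16.5 and 15.1 points in Unc5c. Unc5b was called at 30 ppm (15.3 points, or 9.02 and not called with a minimum of 10 reads) and missed the minimum difference at 3 ppm (8.96 points, adjusted p = 0.00257). Its upstream flank was called in both diets, by 24.0 points (adjusted p = 6.37e-07) and 21.2 points (adjusted p = 1.15e-07), while the downstream one differed by 2.98 and 6.25 points, not called. Unc5b lies 2.06 Mb from Tet1 on chromosome 10 and holds the 1 CpG of all members that was at 90% or more in both KO and 10% or less in both WT libraries. What part sequence linked to the targeted allele has in its difference was not tested.

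Of the netrins, Ntn3 (chr17:24203848-24209531, minus strand) had flank levels of 66.8% in KO against 44.4% in WT under 3 ppm, and of 64.7% and 51.8%, not called, at 30 ppm. KO was higher at 19 of its 20 flank CpGs at 3 ppm and at 12 at 30 ppm. Its CpG 1658 bp after the start site (chr17:24207873) had 65.0% in KO against 9.09% in WT under 3 ppm, and 55.6% against 20% under 30 ppm, on 5 to 20 reads a library. CpG differences in these flanks ran from -4.44 to 55.9 points at 3 ppm and from -28.6 to 52.7 at 30 ppm. The start site of Ntn5, which the gene Sec1 overlaps, had 95.1% and 73.7% at 30 ppm and 88.5% and 77.1% at 3 ppm, over 6 CpGs. With a minimum of 2 reads its difference of 21.4 points dropped to 5.01. Ntn1, the floor-plate attractant (chr11:68209364-68400823, minus strand), had flank levels of 44.3% in KO against 28.5% in WT under 30 ppm, and of 37.5% against 38.5% under 3 ppm. As a mean over CpGs its 15.9 points at 30 ppm became 3.48. Neither side was called: KO was 9.16 points higher upstream and 7.00 downstream at 30 ppm, and 6.21 and 1.08 points at 3 ppm. Of the reads 38.4% lay upstream in KO against 26.9% in WT under 30 ppm, and 31.2% against 36.5% under 3 ppm.

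Gene bodies moved little. None of the 66 was called at 30 ppm (background 2% of all genes), and Sema4a (10.5 points) and Efna3 (10.8 points) were called at 3 ppm (3.03%, background 1.75%), so that 0 of 66 were called in both (background 0.838%). Neither was called with a minimum of 10 reads (6.44 and 6.52 points). All 66 bodies were nevertheless above 0 at 30 ppm (background 84.6%), with a median of 2.70 points against 1.65 over all genes. At 3 ppm 45 were (background 63.4%), with a median of 1.12 points against 0.523. In 1-kb tiles from 3 kb before the start site to the gene end, 137 of 10274 member tiles (1.33%, background 1.5%) were hypermethylated at 30 ppm and 117 (1.14%, background 1.51%) at 3 ppm. Hypomethylated tiles numbered 6 (background 0.0454%) and 12 (background 0.0979%). Tiles within 1 kb of the start site were called at 7.48% and 11.2%, where those of all genes were at 6.43% and 8.16%. At 1 to 3 kb the members stood at 6.70% and 11.7% against 3.85% and 4.29% of all genes. At 3 to 10 kb they stood at 3.74% and 3.5% against 1.62% and 1.78%, and beyond 10 kb at 1.02% and 0.653% against 1.08% and 0.962%.

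The authors' lists of differentially methylated regions (DMRs), called with DSS between single libraries, held 30 hypermethylated regions in 20 members at 30 ppm (30.3%, background 11.6% of all genes) and 23 in 17 members at 3 ppm (25.8%, background 11.9%). Per Mb of gene span the members held no more than other genes, 2.5 against 2.83 and 1.92 against 2.96. No hypomethylated KO DMR fell on a member (background 0.12% and 0.0817%). Of the 30 regions, 20 lay more than 10 kb from the start site, and of the 23, 12 did. The pairs of libraries behind these lists share no library, and 11 regions of each overlapped, which is 36.7% of the first and 47.8% of the second list, in 9 members. Of the regions on all genes, 47.3% of the first list and 44.6% of the second overlapped one of the other diet. Since the regions were selected for their difference, their levels are a description and have no test.

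**Figure D5:**
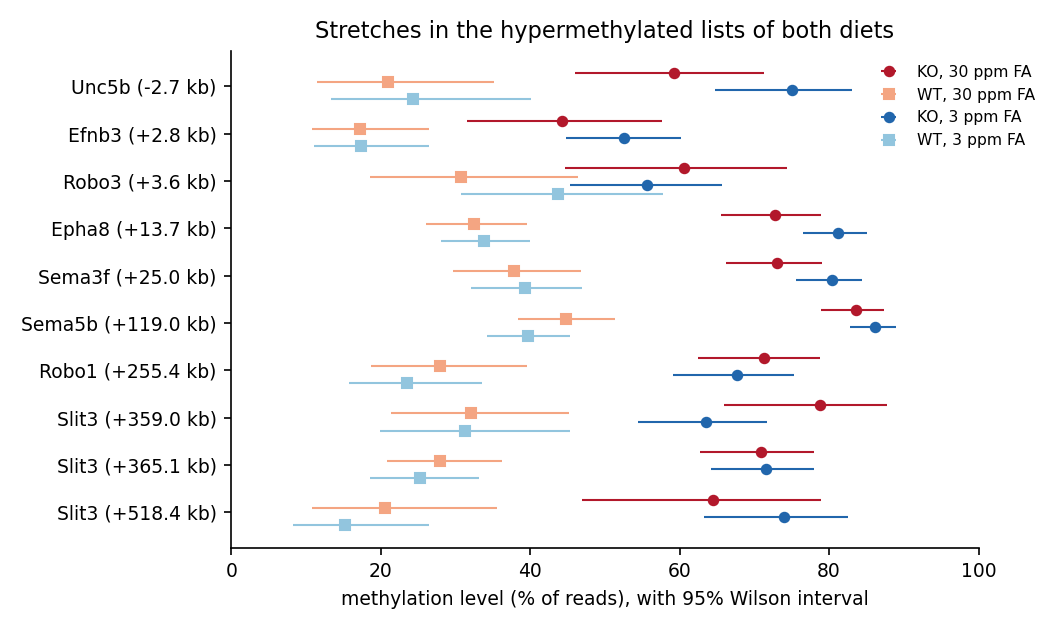
Methylation level (% of reads, with 95% Wilson intervals for counting error) in the 4 libraries of the stretches that lie in the hypermethylated DMRs of both diets and hold at least 5 usable CpGs, with their distance from the start of the gene record. WT (squares) lies between 15.3 and 44.8% and KO (circles) between 44.2 and 86.2%, with the narrowest gap in Robo3 at 3 ppm.

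Most of these shared stretches lie inside genes, far from the start site. In Sema5b, a transmembrane semaphorin with thrombospondin repeats, the stretch chr16:35659543-35660727, 119 kb into the gene and over a coding exon, had 83.6% in KO against 44.8% in WT under 30 ppm, and 86.2% against 39.7% under 3 ppm, over 32 CpGs. In Epha8 an intronic stretch 13.7 kb after the start site had 72.7% and 32.4%, then 81.2% and 33.8%, over 21 CpGs. In Sema3f, a secreted class 3 semaphorin, chr9:107685351-107685603 over coding exon and UTR had 73.1% and 37.8%, then 80.4% and 39.3%. Sema3f had no start-site or flank call.

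Slit3, a secreted repellent, held 3 shared stretches, all intronic, 359, 365 and 518 kb after the start site. The one with the most CpGs, chr11:35486222-35486503, had 70.9% in KO against 27.9% in WT under 30 ppm, and 71.6% against 25.2% under 3 ppm. In Robo1, a Slit receptor, chr16:72563638-72563758 lies over a coding exon and had 71.3% and 27.9%, then 67.7% and 23.5%. It lies 255 kb after the start of the gene record, but at -99.5 kb from that of the tagged transcripts. The coding exon is therefore not one of the tagged transcripts. In Unc5b, at -2.72 kb from the start site, chr10:60834194-60834399 had 59.3% and 20.9%, then 75.0% and 24.3%. In Efnb3 the stretch of 413 bases over a coding exon lies 2.82 kb after the start site, inside its flank window, and had 44.2% and 17.2%, then 52.6% and 17.4%.

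The sequences of 5 of these stretches, 1 or more from each ligand and receptor system, show how their CpGs are spaced. They are given 5′ to 3′ on the plus strand of GRCm38 with each CpG in capitals. For Epha8 and Sema5b the 300 bases of the stretch with the most usable CpGs are shown. The Epha8 intron is chr4:136942937-136943236 with 18 CpGs, Sema5b is chr16:35660429-35660728 with 20, Slit3 is chr11:35486222-35486504 with 10, Robo1 is chr16:72563638-72563759 with 6, and Unc5b is chr10:60834194-60834400 with 7.
Epha8: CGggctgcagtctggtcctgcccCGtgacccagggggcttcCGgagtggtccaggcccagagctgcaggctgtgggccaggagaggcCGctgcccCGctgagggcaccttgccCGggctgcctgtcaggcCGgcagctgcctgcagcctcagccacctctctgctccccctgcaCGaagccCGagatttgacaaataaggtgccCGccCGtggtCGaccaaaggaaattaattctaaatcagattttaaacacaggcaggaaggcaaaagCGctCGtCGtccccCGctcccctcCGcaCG
Sema5b: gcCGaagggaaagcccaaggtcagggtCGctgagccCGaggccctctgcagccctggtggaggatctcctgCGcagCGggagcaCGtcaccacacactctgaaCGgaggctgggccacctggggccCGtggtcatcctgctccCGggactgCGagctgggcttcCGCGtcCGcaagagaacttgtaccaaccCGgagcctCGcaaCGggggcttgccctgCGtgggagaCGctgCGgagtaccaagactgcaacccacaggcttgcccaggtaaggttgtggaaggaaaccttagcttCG
Slit3: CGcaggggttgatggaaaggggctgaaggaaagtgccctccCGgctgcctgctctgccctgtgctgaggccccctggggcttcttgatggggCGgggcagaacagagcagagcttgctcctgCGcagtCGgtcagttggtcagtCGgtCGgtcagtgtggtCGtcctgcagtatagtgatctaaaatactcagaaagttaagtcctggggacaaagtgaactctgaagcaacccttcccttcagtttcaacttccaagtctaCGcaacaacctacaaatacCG
Robo1: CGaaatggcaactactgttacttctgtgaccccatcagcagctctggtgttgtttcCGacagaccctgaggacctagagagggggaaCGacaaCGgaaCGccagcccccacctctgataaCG
Unc5b: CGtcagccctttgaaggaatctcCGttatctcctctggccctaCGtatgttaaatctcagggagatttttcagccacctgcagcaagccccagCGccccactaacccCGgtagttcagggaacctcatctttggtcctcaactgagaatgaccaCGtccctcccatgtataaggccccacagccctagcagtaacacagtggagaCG

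The 4 sequences inside gene records are rich in G and C, between 55.5% in Slit3 and 65.3% in Sema5b. In Slit3 and Robo1 all CpGs shown were usable in all 4 libraries, and in Unc5b 6 of 7.

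Tiles gave 39 member places called in both diets (0.38% of member tiles, background 0.529%), and some lie outside the shared DMRs. The largest was intronic in Slit1 (chr19:41664001-41665000), 79.2 kb into the gene, with 76.9% in KO against 27% in WT under 30 ppm and 78.8% and 35.4% at 3 ppm, over 4 CpGs. A Sema6d tile 1.53 kb after the start site had 67.8% and 33.3%, then 67.5% and 33.3%. In Unc5b an intronic tile at 31.1 kb had 65.9% and 37.8%, then 66.9% and 32.5%.

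Between 30 and 3 ppm, 0 of the 64 start-site and 66 flank windows were called in KO and 0 in WT by Fisher's exact test, and 0 of 66 bodies in either. The backgrounds for higher and lower levels at 30 ppm were 0.632% and 0.567% of start sites, 0.26% and 0.191% of flanks and 0.061% and 0.0499% of bodies in KO. In WT they were 0.447% and 0.346%, 0.167% and 0.427%, and 0.0721% and 0.122%. With the sides of the start site apart, diet calls appeared. Upstream none was made (background 0.207% in KO and 0.111% in WT, either direction). Downstream 1 of 66 was called in KO (1.52%, background 0.401%), in Nrp1, 10.8 points higher at 30 ppm (adjusted p = 0.0476). In WT 3 were (4.55%, background 0.731%): Sema4c, 32.8 points higher at 30 ppm (adjusted p = 0.00329), Unc5d, 12.4 points higher (adjusted p = 0.0432), and Plxna1, at 50% under 30 ppm and 80.3% under 3 ppm (adjusted p = 0.0472). The Sema4c and Plxna1 sides rest on 9 and 7 CpGs. Unadjusted p lay under 0.05 for 5 of 64 start sites (7.81%, background 12.7%), 7 of 66 flanks (10.6%, background 11.6%) and 26 of 66 bodies (39.4%, background 20%) in KO. In WT it did for 5 start sites (7.81%, background 11.4%), 16 flanks (24.2%, background 12.1%) and 33 bodies (50%, background 21.7%). The median body difference between the diets was 0.654 points in KO and -0.792 in WT, against 0.521 and -0.592 over all genes. Member genes are longer than most (median 62.8 against 17.6 kb), and what part length has in the body counts was not tested. Past the adjusted threshold but under 10 points were 15 bodies in KO (22.7%, background 7.06% at any size) and 21 in WT (31.8%, background 9.49%). So were 1 start site in KO (1.56%, background 1.8%) and none in WT (background 0.984%), and no flank in KO (background 0.908%) and 1 in WT (1.52%, background 1.13%). The start site was that of Sema3a, 9.21 points lower at 30 ppm. Its window lies at the start of the gene record, 271370 bp from that of the tagged transcripts, where KO was 6.16 points higher at 30 ppm, over 5 CpGs and not called. The flank was that of Sema5b, 6.80 points higher at 30 ppm. Of the authors' diet DMRs, those lower at 30 ppm touched Efna5 and Plxnc1 in KO (3.03%, background 0.187%) and Plxna1 in WT (1.52%, background 0.178%), and those higher at 30 ppm no member (background 0.346% and 0.24%). The Efna5 intron (chr17:62695089-62695334) had 32.7% in KO at 30 ppm against 78.1% in KO at 3 ppm, while WT stood at 78.9% and 67%. Only KO at 30 ppm stood apart there, over 6 CpGs and 49 reads.

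A change of KO minus WT with diet was tested by the Wald test on the log odds ratios of all 4 libraries. It was called for 0 of 64 start sites (background 1.35%) and 4 of 66 flanks (6.06%, background 1.58%). In Dcc the difference was 16.5 points larger at 30 ppm (adjusted p = 0.00633), in Ntn1 16.9 points (adjusted p = 0.0101) and in Nrp1 14.6 points (adjusted p = 0.0122). In Sema5b it was 8.87 points larger at 3 ppm (adjusted p = 0.0233), where flank levels were 41.8% in KO against 41.4% in WT under 30 ppm and 43.9% and 34.6% at 3 ppm. Its upstream side taken alone was called in both diets, with 71.4% in KO against 59.7% in WT under 30 ppm (adjusted p = 0.000618), and 74.4% against 61.0% under 3 ppm (adjusted p = 1.92e-06). None of the 4 passed on either side taken alone. Upstream and downstream the change with diet was 3.74 and 7.98 points in Dcc (adjusted p = 0.878 and 0.282) and 2.95 and 5.92 points in Ntn1 (adjusted p = 0.945 and 0.541). It was 11.04 and 12.9 points in Nrp1 (adjusted p = 0.620 and 0.107), and -1.71 and -8.90 points in Sema5b (adjusted p = 0.898 and 0.0622). In each the share of reads from the side upstream differed between the libraries. By side 0 of 65 members passed upstream (background 0.156%) and 1 of 66 downstream (1.52%, background 0.906%), Sema4c, with 34.4% in KO against 51.9% in WT under 30 ppm and 42.0% against 19.2% under 3 ppm (adjusted p = 0.0287). In gene bodies the test was called for 24 of 66 members (36.4%, background 15%), all with the larger difference at 30 ppm, by 1.15 to 5.98 points. The median change over all 66 bodies was 1.36 points, against 1.13 over all genes. The genome-wide mean also differed more between KO and WT at 30 ppm (83.5 and 81.4%) than at 3 ppm (82.8 and 82.1%), and its part in these body differences was not tested.

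With both diets as 1 set, limma called 16 of 64 start sites (25%, background 14.6%) and 25 of 66 flanks (37.9%, background 14.1%), all of them higher in KO (background for lower levels 0.141% and 0.55%). Of the bodies 13 of 66 were called (19.7%, background 12.3%), again none lower (background 1.37%). The largest log2 odds ratios of KO over WT at start sites were those of Sema6c (1.84, adjusted p = 0.00861), Dcc (1.83), Ntn5 (1.80), Sema4a (1.74), Nrp1 (1.69) and Epha8 (1.60). In the flanks they were those of Sema6a (1.23, adjusted p = 0.000932), Sema6d (1.18), Sema6b (1.11), Unc5a (1.08), Ntn3 (1.04) and Efnb3 (1.03). Sema6c, Nrp1 and Sema6a were low in all libraries in these windows, and their differences, at most 9.98 points, missed the minimum. The start site of Sema6c had 13.9% in KO against 3.90% in WT under 30 ppm, and 12.2% against 3.73% under 3 ppm. The flanks of Sema6a had 10% and 3.82%, then 8.0% and 4.09%. The limma fit has a single embryo in each cell and 1 residual degree of freedom. In the flanks its spread came entirely from the trend over all windows. Fitted on genotype alone, limma called 37 member start sites and flanks with all 4 libraries (28.5%, background 13.7%). Without 1 library in turn it called a smaller share, both of the members and of all genes.

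Further genes of the pathway, a list of 90 co-receptors, adhesion molecules and effectors of the growth cone of which 89 are autosomal, were described by the same windows. At the start site 22 of 88 were hypermethylated at 30 ppm and 26 at 3 ppm, 14 of them in both, and 1, Dpysl4, was hypomethylated at 30 ppm. In the flanks 26 of 89 were hypermethylated at 30 ppm and 11 at 3 ppm, 8 of them in both. Limk1, the kinase that phosphorylates cofilin, had start-site levels of 39.6% in KO against 11.6% in WT under 30 ppm, and of 36.8% against 10.6% under 3 ppm. It was followed by the adhesion molecule Nfasc (23.9 and 18.6 points) and the Shh receptor Ptch1 (17.9 and 20.9 points). The largest flank differences called in both diets were those of the small GTPase Rnd1 (22.4 and 20.8 points), the chemokine receptor Cxcr4 (14.9 and 15.2) and the kinase Fyn (11.9 and 17.3). Between the diets 3 of 88 start sites and 1 of 89 flanks of the list were called. For start sites the backgrounds of higher and lower levels at 30 ppm were 0.632% and 0.567% in KO and 0.447% and 0.346% in WT. For flanks they were 0.26% and 0.191% in KO and 0.167% and 0.427% in WT. For KO against WT the backgrounds are those given for the same windows of all genes, 15.4% and 16.6% at the start site and 9.5% and 7.05% in the flanks. For calls in both diets they are 8.01% and 3.5%, and for hypomethylated start sites at 30 ppm 0.331%.

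Windows of the members without a call in either diet were 50 start sites, 38 flanks and 64 bodies. Differences of these flanks ranged from -5.04 to 10.4 points at 30 ppm and from -5.73 to 9.29 at 3 ppm, and 6 and 8 of the 38 were below 0. Those of the start sites ranged from -4.76 to 18.6 and from -3.47 to 17.5 points. The thinnest start-site window held 26 reads in its shallowest library.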

How the data were processed

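Genomic DNA of single embryonic brains was bisulfite converted and sequenced. As the methods state, the authors used Trim Galore (version 0.6.10) for trimming and Bismark (version 0.23.1) for alignment to GRCm38.p6, removed duplicates and merged both strands of a CpG. The deposited tables give, per CpG, a methylation fraction, between 0 and 1, and the coverage, from which whole read counts were recovered. The deposited DMR lists, made with DSS from pairs of single libraries, give positions only, with no value. No per-sample column was left unmapped.

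A CpG was usable with 5 or more reads in every library, and windows needed 3 such CpGs. Pairs of libraries were compared by Fisher's exact test (two-sided) on summed methylated and unmethylated reads, adjusted by Benjamini-Hochberg over the same window of all genes. A call needed an adjusted p under 0.05 and 10 points. A read counts at every CpG it covers, so counts are not independent, p-values can be too small, and intervals (Newcombe for differences, Wilson for levels, both 95%) cover counting error only. The Wald test compared log odds ratios between diets with 0.5 added to each count. limma (version 3.58.1) fitted log2((methylated + 1)/(unmethylated + 1)) with diet as a term, which leaves 1 residual degree of freedom, so that in the flanks the spread came entirely from the fitted trend. These tests were tried on simulated data. For the Fisher and Wald tests the simulated reads were independent and had no spread between embryos. The trial therefore cannot show how either affects the calls.

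The members and lists, the pathway and marker lists included, were chosen with earlier results of these data known. Some genes of the marker lists are not reported here. Named in full were the 12 members called in both diets with the largest mean difference and, for each diet, the 6 largest called in that diet only. Others with a call were named with their difference, and up to 6 each for the Wald and limma tests. For single CpGs the member of each system with the largest mean difference was shown, called or not. The single CpG printed for each was among those with the largest differences of its window. Alternatives were read minima of 2 and 10, thinning to the shallowest library, other minimum differences, means of CpG levels, other windows and start sites, leaving out variant-like CpGs, and DMRs of at least 5 CpGs. The splits by CpG richness, by WT level and by side of the start site were added after seeing the data.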

Additional observations from a re-analysis of the deposited data

Results flagged for a closer look

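In the flanks of 4 members KO minus WT differed between the diets by the Wald test on both sides of the start site summed. It was larger at 30 ppm by 16.5 points in Dcc, 16.87 points in Ntn1 and 14.63 points in Nrp1, and it was -8.87 points, larger at 3 ppm, in Sema5b. With the sides apart none of the 4 passed: the upstream and downstream changes were 3.74 and 7.98 points in Dcc, 2.95 and 5.92 in Ntn1, 11.04 and 12.9 in Nrp1, and -1.71 and -8.90 in Sema5b. The share of reads from the upstream side ranged from 27.3 to 37.2% over the libraries in Dcc and from 26.9 to 38.4% in Ntn1, and its part in the summed differences was not tested. All 4 rest on 1 embryo per group. Among gene bodies 24 members passed the same test (36.4%, background 15%).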

How the results depend on the processing

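Of the results that answer a comparison, 88 values under another setting stayed close to the reported one, and 45 did not. A count was close within 1.5 times, or where 0 stayed 0. A median was close if it kept its sign and moved by less than the counting error of a typical member window. Shares of all genes under the same setting are given as background. With a minimum of 10 reads per CpG, called start sites at 3 ppm fell from 10 to 5 (13.9% of those tested, background 14.4%), flanks from 20 to 12 at 30 ppm (19%, background 7.42%) and from 16 to 9 at 3 ppm (14.3%, background 5.08%), and bodies at 3 ppm from 2 to 0 (background 1.03%). Wald calls fell from 4 to 2 (background 0.197%), limma calls from 41 to 22 (22.2%, background 9.43%) and tiles to 58 (0.676%, background 0.881%) and 44 (0.513%, background 0.745%), while 1 diet call appeared in WT (background 0.178%). Thinning all libraries to the shallowest gave 1 body call at 30 ppm (background 2.05%), 1 diet call in KO (background 0.371%), 2 Wald calls (background 0.616%) and 63 tiles at 3 ppm (0.621%, background 0.789%). A minimum difference of 5 points gave 17 start sites (26.6%, background 24.4%) and 26 flanks (39.4%, background 16.8%) at 3 ppm, 11 and 10 bodies (background 8.19% and 6.15%), and 1 diet call in each genotype (background 1.3% in KO and 1.04% in WT). One of 15 points gave 5 start sites at 3 ppm (background 8.08%), 8 and 9 flanks (12.1% and 13.6%, background 2.81% and 2.1%) and 0 bodies (background 0.705% and 0.716%). Means of CpG levels gave 12 flanks at 30 ppm (background 7.65%) and 1 body at 3 ppm (background 1.69%). A start-site window of 500 bp gave 5 calls of 45 tested at each diet (11.1%, background 7.38% and 10.1%). One of 2.5 kb, which takes in most of the flanks, gave 20 and 18 (30.3% and 27.3%, background 2758 and 2347 of 20408 genes), with 1 diet call in WT (background 0.836%) and 9 Wald calls (6.82%, background 3.25%). Whole gene records gave 1 and 4 calls (background 3.64% and 3.52%). limma on genotype alone called 37 windows with all libraries (background 13.7%), 24 without KO at 30 ppm (7.12%), 16 without WT at 30 ppm (6.45%), 23 without KO at 3 ppm (10.1%) and 19 without WT at 3 ppm (6.99%). With the sides of the start site apart, an alternative added after seeing the data, 26 of 66 members had at least 1 flank side called at 3 ppm (39.4%, background 13.8%) and 30 at 30 ppm (45.5%, background 16.2%), diet calls rose to 1 in KO and 3 in WT, and Wald calls fell to 1. DMRs of at least 5 CpGs left 13 members at 30 ppm (19.7%, background 8.07%), 11 at 3 ppm (16.7%, background 8.58%), 1 for diet in KO (background 0.0481%) and 0 in WT (background 0.0817%).

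Of single windows 264 values kept direction and call, 61 kept direction only, and 3 reversed: Ephb1 at its start site at 3 ppm (-7.96 with 10 reads) and Plxna2 at 30 ppm (-2.46 with 10 reads, -0.33 as a mean of CpG levels). The cause was not tested. No paired analysis was possible because each group holds 1 sample, so that no replicate number could be a block. The limma fit has diet as a term, which sets KO against WT within each diet, and called 41 windows with it and 37 without. Depth limits the windows with few usable CpGs.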
